A study of Mus musculus with 17 samples.

Results

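The constitutive androstane receptor CAR (gene Nr1i3), the pregnane X receptor PXR (Nr1i2), 6 cytochrome P450 genes of their target families (Cyp2b9, Cyp2b10, Cyp3a11, Cyp3a13, Cyp2c29 and Cyp2c55) and the P450 reductase gene Por were followed through the livers of mice on a high-fat and a control diet. The 9 genes were picked out of the tables by name, with earlier results of these data known. All 9 were among the 12334 genes of the RNA table, and 38 of the 57499 regions of the H3K9ac table carried the name of a member as their nearest start site.

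CAR and PXR are nuclear receptors of the hepatocyte that bind DNA together with the retinoid X receptor and switch on genes for the oxidation, conjugation and transport of drugs, steroids and bile acids. CAR is best known for the induction of Cyp2b10 and PXR for that of Cyp3a11, although their target genes overlap. Microsomal P450 enzymes receive their electrons from the reductase encoded by Por, so that 1 reductase serves many P450s.

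C57BL/6 mice were fed a high-fat diet (HFD, 60% of energy from fat) or a control diet (CD, 18%) for 10 weeks. Polyadenylated liver RNA was sequenced in 4 libraries per diet, lettered A to D. Chromatin carrying acetylated lysine 9 of histone H3 (H3K9ac), a mark of active promoters and enhancers, was sequenced in 3 libraries per diet (CD A, C and D, and HFD A, B and D). The libraries are whole liver, the age of the animals is not given in the sources used here, and in bulk tissue fewer cells of a type and less RNA per cell cannot be told apart.

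RNA libraries held 31802893 to 37596560 counted reads and H3K9ac libraries 9255635 to 12149497. RNA levels are given as CPM (reads of a gene scaled to a common library size), and differences as log2 of the HFD level divided by the CD level. Each difference has the standard error (SE) of edgeR's quasi-likelihood fit and a Benjamini-Hochberg adjusted p over the whole table, called at 0.05. Hepatocyte markers were present in every library, and 0 of the 9 measured passed the test. HFD A and B stood apart from HFD C and D in several marker lists, whose values are given below beside the genes they move with. Nothing in the labels says whether libraries of the same letter come from 1 animal, so p-values measure the spread between these libraries.

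The sequence before the start of 4 of the genes is shown: Cyp2b10 and Cyp2b9 because they are close relatives that went opposite ways, and Cyp3a11 and Cyp2c29 because they are the most abundant of the P450s that fell. Each line gives the 250 bases before the start, 5′ to 3′ on the gene's strand, from RefSeq (GRCm38.p6). Cyp2b10 lies at chr7:25897408-25897657 on the plus strand, Cyp2b9 at chr7:26173159-26173408 (plus), Cyp3a11 at chr5:145879855-145880104 (minus) and Cyp2c29 at chr19:39286835-39287084 (plus). Capitals mark the nuclear receptor half-site letters AGGTCA or AGTTCA on either strand (TGACCT and TGAACT on the other).
Cyp2b10: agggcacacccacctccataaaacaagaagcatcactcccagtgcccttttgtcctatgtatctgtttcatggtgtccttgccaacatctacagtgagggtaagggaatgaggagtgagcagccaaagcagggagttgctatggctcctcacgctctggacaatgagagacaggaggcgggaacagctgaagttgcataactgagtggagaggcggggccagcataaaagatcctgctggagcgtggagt
Cyp2b9: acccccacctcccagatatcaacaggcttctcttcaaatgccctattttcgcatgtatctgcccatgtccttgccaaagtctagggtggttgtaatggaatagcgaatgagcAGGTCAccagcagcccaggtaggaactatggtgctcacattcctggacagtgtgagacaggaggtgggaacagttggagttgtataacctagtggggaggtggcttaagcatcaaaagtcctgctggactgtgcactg
Cyp3a11: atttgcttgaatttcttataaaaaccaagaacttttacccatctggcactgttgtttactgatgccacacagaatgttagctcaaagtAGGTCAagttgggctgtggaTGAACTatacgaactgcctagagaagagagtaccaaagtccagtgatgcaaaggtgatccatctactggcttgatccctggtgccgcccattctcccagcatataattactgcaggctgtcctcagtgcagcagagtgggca
Cyp2c29: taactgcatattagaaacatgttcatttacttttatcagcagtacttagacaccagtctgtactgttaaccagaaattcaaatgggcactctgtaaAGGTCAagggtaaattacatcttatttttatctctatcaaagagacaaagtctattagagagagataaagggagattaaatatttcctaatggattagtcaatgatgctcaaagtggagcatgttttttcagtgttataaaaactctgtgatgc

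The Cyp2b10 and Cyp2b9 windows were identical at 179 of 250 aligned bases (71.6%), against 145 (58.0%) for Cyp3a11 and Cyp3a13 and 140 (56.0%) for Cyp2c29 and Cyp2c55. The windows of Nr1i3 and Nr1i2, aligned in the same way with gaps allowed, were identical at 124 (49.6%). Cyp2b9 held AGGTCA 138 to 133 bases before its start, and the Cyp2b10 window held neither motif. Cyp3a11 held AGGTCA at 162 to 157 bases and TGAACT at 142 to 137 bases before its start, and Cyp2c29 held AGGTCA at 154 to 149 bases. In all, 3 of the 9 members had a match. Over 32536 distinct RefSeq windows of the same length, AGGTCA was found in 14.04%, AGTTCA in 11.8% and either in 24.2%, and a match in the letters is no measure of binding.

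The receptors were measured first. Nr1i3 stood at 63.0, 73.6, 71.6 and 87.1 CPM in CD A to D and at 134, 121, 68.6 and 69.0 CPM in HFD A to D. HFD A and B lay above every CD library, while HFD C and D lay inside the CD range. Its log2 difference was 0.41 (SE 0.22, adjusted p = 0.344 by edgeR).

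Nr1i2 followed the same order of libraries. Its levels were 48.9, 52.9, 52.0 and 60.9 CPM in CD A to D and 80.6, 74.0, 44.8 and 45.4 CPM in HFD A to D. HFD A and B were again above all CD libraries, and HFD C and D were below all of them. The log2 difference was 0.19 (SE 0.19, adjusted p = 0.671 by edgeR), and neither receptor was called.

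The difference between the receptors was tighter than either level. The log2 ratio of Nr1i3 to Nr1i2 ran from 0.37 to 0.51 in CD and from 0.60 to 0.73 in HFD, a mean shift of 0.21. All 4 HFD libraries lay above all CD libraries (exact permutation test, two-sided, p = 0.0286, the smallest that 4 against 4 can give, and 0.0286 after adjustment over the 5 ratios tested). With each diet centred on its own mean, the genes most like Nr1i3 over the 8 libraries were Nr1i2 (Pearson r 0.996), Gys2 (0.990) and Ces1d (0.985), among the 6166 genes in the upper part of the table by mean level. Gys2, liver glycogen synthase, and Ces1d, a carboxylesterase, were also the nearest to Nr1i2 after Nr1i3 (r 0.993 and 0.985). These correlations share the same libraries and are descriptions without a test. Centring takes out the diet difference, which was 0.72 for Gys2 and -1.46 for Ces1d on the log2 scale (adjusted p = 0.0106 and 0.00798 by edgeR).

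**Figure D1:**
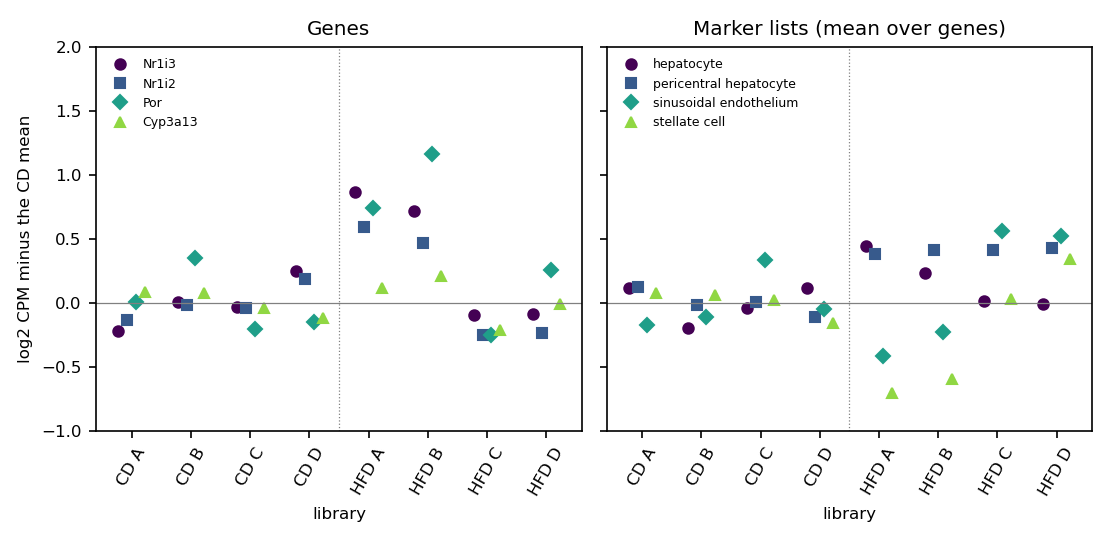
Level of Nr1i3, Nr1i2, Por and Cyp3a13 (left) and mean level of 4 marker lists (right) in each RNA library, as log2 CPM minus the CD mean. Nr1i3, Nr1i2 and Por were highest in HFD A and B, the 2 libraries in which the endothelial and stellate lists were lowest.

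Other cell markers moved with this split of the HFD libraries. Relative to the CD mean, the hepatocyte list stood at 0.44, 0.23, 0.01 and -0.01 on the log2 scale in HFD A to D. The sinusoidal endothelium list stood at -0.41, -0.23, 0.56 and 0.53, and 0 of its 12 genes passed the diet test. The Kupffer cell and macrophage list stood at -0.68, -0.02, 0.17 and 0.81 (0 of 13 passed). The stellate cell list stood at -0.70, -0.60, 0.03 and 0.34 (0 of 13 passed), with a summed level of 544 to 638 CPM in CD and 414 to 711 CPM in HFD. No gene of these lists was at 0 throughout, and their part in the receptor levels was not tested.

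Of the 9 members, 1 was called higher on HFD and 4 lower, where 3.63% of all 12334 genes were called higher and 3.64% lower. The diets did not overlap for 5 of the 9, against 14.3% of all genes. Since the members were chosen with earlier results of these data known, neither count is a test of the set. The median log2 difference was 0.03 over the members and 0.01 over all genes.

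**Figure D2:**
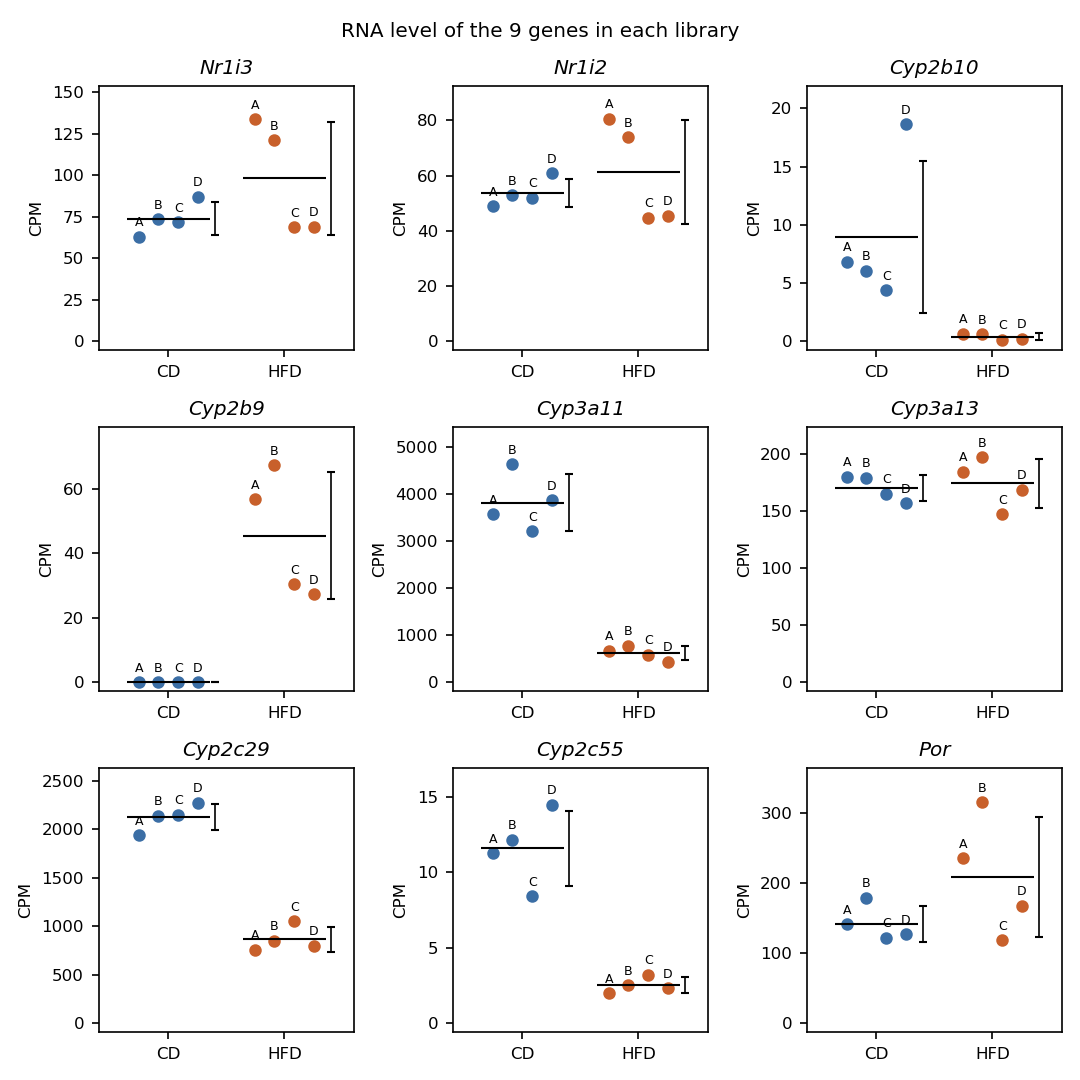
RNA level (CPM, linear axis from 0) of the 9 genes in each library, lettered A to D, with the mean (line) and SD (bar) of 4 libraries per diet. Cyp2b10, Cyp3a11, Cyp2c29 and Cyp2c55 were lower in every HFD library, Cyp2b9 was higher, and the other 4 overlapped.

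The Cyp2b pair, the classical CAR family, exchanged its members. Cyp2b10 stood at 6.83, 6.05, 4.39 and 18.7 CPM in CD A to D and at 0.661, 0.603, 0.122 and 0.213 CPM in HFD A to D. Every HFD library was below every CD library, and CD D was well above the other CD libraries. Cyp2b10 fell by 4.47 on the log2 scale (SE 0.58, adjusted p = 0.00125 by edgeR).

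Cyp2b9, a P450 known to be higher in female than in male mouse liver, was almost unread on the control diet. It had 1, 1, 0 and 1 reads in CD A to D and 1977, 2236, 1002 and 899 reads in HFD A to D. These are 56.8, 67.4, 30.5 and 27.3 CPM on HFD, with HFD A and B again above C and D. Over the summed reads, 3 against 6114, the ratio scaled for library size was 2080, with a 95% counting interval of 711 to 10088 that covers counting error only. edgeR called it higher (adjusted p = 6.25e-06).

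The log2 ratio of Cyp2b9 to Cyp2b10 was higher in every HFD library than in any CD library (exact permutation test, two-sided, p = 0.0286 and adjusted p = 0.0286). Cyp2b9 was higher and Cyp2b10 lower in every HFD library, so this p was fixed by the 2 levels and adds no support. With at most 1 Cyp2b9 read per CD library, the size of that shift depends on the prior count added to the reads: it was 13.34 with a prior count of 2 and 14.80 with 0.5, and neither is a bound. Scaled for length, Cyp2b9 made up 0.263% ± 0.221 (SD, n = 4) of the RNA of the 2 genes on CD and 99.2% ± 0.312 (n = 4) on HFD. Their summed level was 9.0 ± 6.54 CPM (SD, n = 4) on CD and 45.9 ± 19.9 CPM (n = 4) on HFD, a log2 difference of 2.35 (SE 0.45, adjusted p = 0.011 by edgeR). The 2 genes are near relatives and how the authors assigned reads that fit both is not given in the sources used here, so the split between them is less certain than their sum.

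Other genes known to differ between the sexes moved in the same comparison. Of 12 genes known to be higher in female mouse liver 4 were measured, and all 4 were called higher: Cyp2b9 itself, Cyp17a1, Cyp2a4 and Atp6v0d2. Genes of low count had been left out of the RNA table. Cyp2b9 was in it only through its HFD reads, and Cyp2a4 and Atp6v0d2 averaged 0.237 and 0.689 CPM on CD. Listed genes low on both diets would be missing, so the 4 of 4 is partly set by that filter and is no test of the list. Of 12 known to be higher in male liver, 7 were called lower. The rest were not called: Slco1a1 and Cyp2u1 had log2 differences of 0.03 and 0.25, and Cyp2d9, Hsd3b5 and Nudt7 of -0.43, -0.44 and -0.21. Over all genes 3.63% were called higher and 3.64% lower. The 4 measured Y-linked genes (Ddx3y, Eif2s3y, Kdm5d and Uty) were present at 11.9 to 96.6 CPM in all 8 libraries, and 0 of 4 were called. The part of these lists in the Cyp2b change was not tested.

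The PXR family was led by Cyp3a11, the main mouse counterpart of human CYP3A4. It stood at 3574, 4643, 3218 and 3874 CPM in CD A to D and at 675, 777, 585 and 438 CPM in HFD A to D. The highest HFD library was far below the lowest CD library. The level fell by 2.63 on the log2 scale (SE 0.19, adjusted p = 6.28e-05 by edgeR), a 6.19-fold difference.

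Cyp3a13, which lies apart from Cyp3a11 on chromosome 5 and is also expressed in the gut, did not follow. It stood at 180, 179, 165 and 157 CPM in CD A to D and at 184, 197, 147 and 168 CPM in HFD A to D. The diets overlapped throughout, with a log2 difference of 0.03 (SE 0.11, adjusted p = 0.919 by edgeR). The log2 ratio of Cyp3a11 to Cyp3a13 ran from 4.29 to 4.70 in CD and from 1.38 to 1.99 in HFD, a shift of -2.67 (exact permutation test, two-sided, p = 0.0286 and adjusted p = 0.0286). With Cyp3a13 so steady, the fall of Cyp3a11 fixed that p, which adds nothing to the call of Cyp3a11.

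Over the 4 measured Cyp3a genes, the summed level went from 4621 ± 648 CPM (SD, n = 4) to 1382 ± 246 CPM (n = 4). That sum fell by 1.75 on the log2 scale (SE 0.16, adjusted p = 0.000206 by edgeR). Scaled for length, the Cyp3a11 share was 83.4% ± 1.98 (SD, n = 4) on CD and 45.8% ± 3.14 (n = 4) on HFD. The other 2 genes, Cyp3a25 and Cyp3a59, had log2 differences of -0.08 (SE 0.15) and -0.04 (SE 0.19) and were not called.

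Both Cyp2c members fell. Cyp2c29, an abundant arachidonic acid and drug oxidase, stood at 1941, 2143, 2153 and 2274 CPM in CD A to D and at 761, 850, 1052 and 799 CPM in HFD A to D. No HFD library reached the CD range, and within HFD it was C, not A or B, that was highest. The level fell by 1.30 on the log2 scale (SE 0.12, adjusted p = 0.000224 by edgeR).

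Cyp2c55, a Cyp2c gene known to be induced through both receptors, was much lower in level. It stood at 11.3, 12.2, 8.42 and 14.5 CPM in CD A to D and at 1.98, 2.53, 3.23 and 2.31 CPM in HFD A to D, again without overlap. It fell by 2.20 on the log2 scale (SE 0.20, adjusted p = 0.000177 by edgeR). Its loss was the larger of the pair, the log2 ratio of Cyp2c29 to Cyp2c55 being higher on HFD by 0.87 (exact permutation test, two-sided, p = 0.0286 and adjusted p = 0.0286). Without any 1 HFD library the adjusted p for this ratio was 0.0571 in the exact permutation test.

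Over the 13 measured Cyp2c genes the sum went from 5463 ± 188 CPM (SD, n = 4) to 3658 ± 235 CPM (n = 4). That sum fell by 0.59 on the log2 scale (SE 0.10, adjusted p = 0.00676 by edgeR), less than either member. The length-scaled share of Cyp2c29 was 42.2% ± 4.08 (SD, n = 4) on CD and 26.1% ± 2.31 (n = 4) on HFD.

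Marker lists of other cells and zones also differed between the diets in which the 4 P450s fell. Relative to the CD mean, the pericentral hepatocyte list stood at 0.38, 0.41, 0.42 and 0.43 on the log2 scale in HFD A to D, and 7 of its 12 genes were called higher and 0 lower. Among its other 5 genes, Cyp1a2, Lgr5 and Axin2 had log2 differences of -0.44, -0.35 and -0.31 and were not called. The periportal list stood at 0.70, 0.59, 0.13 and 0.27, with 4 of 12 called higher and 2 lower. The cholangiocyte list stood at -0.97, -0.63, -0.95 and -0.48, with 1 of 6 measured genes, Sox9, called lower. Their part in the P450 levels was not tested.

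Por, the shared electron donor, was highest in the same libraries as the receptors. It stood at 141, 179, 122 and 127 CPM in CD A to D and at 235, 315, 118 and 168 CPM in HFD A to D. HFD A and B were above all CD libraries, HFD D was inside the CD range and HFD C was below it. Its log2 difference was 0.56 (SE 0.26, adjusted p = 0.261 by edgeR). The log2 ratio of Por to Cyp3a11 was higher in every HFD library, by 3.13 on average (exact permutation test, two-sided, p = 0.0286 and adjusted p = 0.0286). The fall of Cyp3a11, without overlap and with a log2 difference of -2.63, was enough to fix that outcome. The ratio is therefore no evidence of a Por difference.

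The order of the genes was read from the authors' log2 FPKM, which is scaled for gene length. On CD it ran Cyp3a11 (mean 10.85), Cyp2c29 (10.22), Cyp3a13 (5.85), Por (5.80), Nr1i3 (5.70), Nr1i2 (4.4), Cyp2c55 (2.52), Cyp2b10 (2.03) and Cyp2b9 (-4.55). Cyp3a13, Por and Nr1i3 overlapped their neighbours, as did Cyp2c55 and Cyp2b10. On HFD Cyp2c29 (8.91) stood above Cyp3a11 (8.20), and Cyp2b9 (4.50) overlapped Nr1i2 (4.55). Among all genes, Cyp3a11 went from rank 33 to 211, Cyp2c29 from 51 to 127, Cyp2b10 from 6876 to 11926 and Cyp2b9 from 12333 to 2280.

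**Figure D3:**
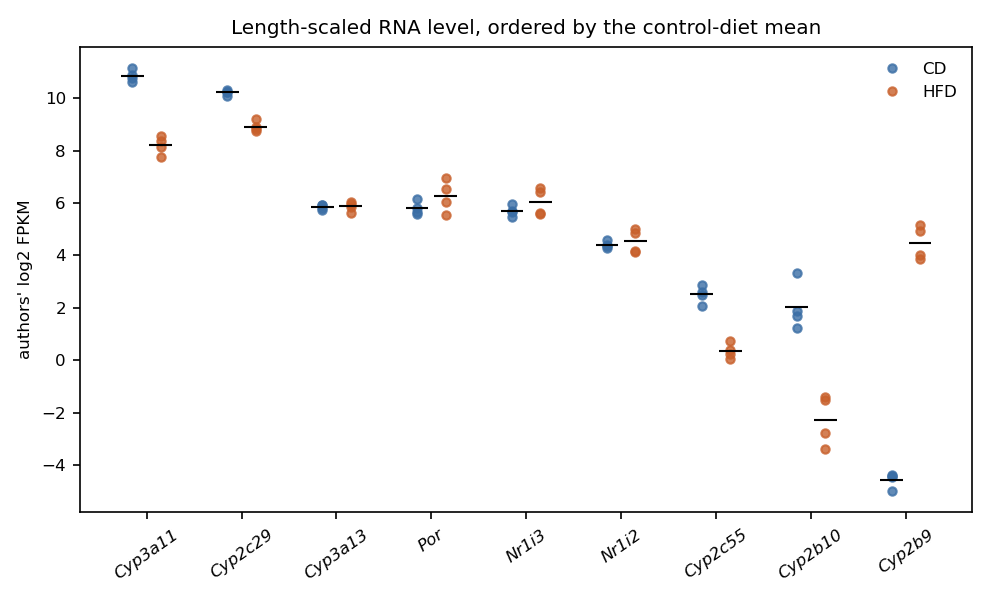
The authors' log2 FPKM of the 9 genes in each library (points, 4 per diet) with the mean (line), ordered by the CD mean. Cyp3a11 led on CD at 10.85 and Cyp2c29 on HFD at 8.91.

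The diet-centred levels also named the genes most like the 2 leading targets. Cyp2b10 was nearest to Steap3 (Pearson r 0.991), Xrcc6 (0.979) and Nelfcd (0.970), and Cyp3a11 to Flot2 (0.963), Abhd6 (0.945) and Taok2 (0.944), each over 8 libraries. These are the highest of 6167 and 6166 genes ranked over few libraries, where high values can arise by chance, and are descriptions without a test. Cyp2b10 had only 4 to 23 reads per HFD library, and its CD D level stood apart. Among the members, Por was most like Cyp3a13 (r 0.941).

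The other genes of the pathway were read against the shares of all genes, 3.63% called higher and 3.64% lower, and a median log2 difference of 0.01. These lists were also chosen with earlier results of these data known, so the shares are a description. Of 18 partners and co-regulators of the receptors, 1 was called higher and 1 lower, a share near that of all genes, with a median log2 difference of -0.08. Ppargc1a, a fasting coactivator, rose by 0.98 (SE 0.19, adjusted p = 0.0119 by edgeR). Hsp90aa1, the chaperone that holds CAR in the cytoplasm, fell by 0.51 on the log2 scale (SE 0.11, adjusted p = 0.0213 by edgeR), a call lost without CD A, CD C or HFD B.

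Of 13 genes of electron and heme supply, 0 were called by edgeR, 1 had an unadjusted p under 0.05, and DESeq2 called 1 lower. Both are the same gene, Cyb5b, a cytochrome b5 of the outer mitochondrial membrane, named after its values were seen. Its log2 difference was -0.31 (SE 0.11, adjusted p = 0.125 by edgeR).

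Of 19 measured other phase I genes, 2 were called higher and 5 lower, with a median log2 difference of -0.31. Cyp2c40 and Cyp2c69 had log2 differences of -3.97 (SE 0.46) and -3.85 (SE 0.60), and the carboxylesterases Ces2a and Ces2c of -1.30 (SE 0.16) and -1.51 (SE 0.19). Their adjusted p-values were 0.000684, 0.00339, 0.00089 and 0.00097 by edgeR. The other 3 called genes, outside the rule for names, were Cyp2a5 (1.44) and Cyp2c39 (0.96), both higher, and Cyp2c37 (-0.43). The higher count was 1 without CD A, CD B, CD C, CD D, HFD B or HFD D.

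Of 28 measured conjugation and transport genes, 4 were called higher and 6 lower, with a median log2 difference of 0.04. The sulfotransferases Sult1d1 and Sult1a1 rose by 1.30 (SE 0.10) and 0.90 (SE 0.15) on the log2 scale. The glucuronosyltransferase Ugt1a9 and the glutathione transferase Gstm3 had log2 differences of -2.31 (SE 0.20) and -1.76 (SE 0.22). Their adjusted p-values were 9.59e-05, 0.00569, 0.000133 and 0.000916 by edgeR. The other 2 called higher, outside the rule for names, were the transporters Abcb1a (1.5) and Slco1a4 (1.35). The rest of those called lower were the transporters Abcb1b (-1.89) and Abcc3 (-0.65), with Ugt2b35 (-0.93) and Gstm4 (-0.93).

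H3K9ac was measured in regions of 1 common set. By nearest start site, Por had 20 regions, Nr1i2 13, Nr1i3 3, and Cyp2b9 and Cyp2c29 1 each, whereas Cyp2b10, Cyp3a11, Cyp3a13 and Cyp2c55 had 0. Of the 38, 8 were called higher on HFD and 0 lower, where 0.835% of all regions were called higher and 1.55% lower. The diets were separate and higher on HFD in 8 of the 38, against 7.05% of all regions. These are not the same 8. Called regions with overlap were Nr1i3 at 577 bases after the start, and Por at 6134 before and 7804 after. Separate but not called were Nr1i3 at 1503 bases before the start, and Por at 15811 and 2678 before. Regions of 1 gene share their libraries and are not independent of each other. With the members chosen as stated above, these counts are no test of the set either.

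Por carried most of these calls. All 20 regions named for Por had a log2 difference above 0, with a median of 0.61 against a median near 0 over all regions. The RefSeq span of Por overlaps 33 regions, and those named for other genes are not counted here. Summed over the 20, the Por signal was 149, 147 and 104 CPM in CD A, C and D and 196, 203 and 143 CPM in HFD A, B and D. HFD A and B were above every CD library and HFD D was inside their range.

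The strongest Por region by p lay 7454 bases before the start used for the distances (chr5:135680947-135682434, mm10), outside any intron or UTR that the table lists. The RefSeq span of Por, 135670040 to 135735326, nevertheless takes in this region and the one at 6134 bases before that start. The region at 7454 bases had 3.84, 3.67 and 3.17 CPM in CD A, C and D and 9.11, 8.25 and 5.05 CPM in HFD A, B and D, without overlap. The log2 difference was 1.08 (SE 0.21, adjusted p = 0.000704 by edgeR), and the call held without any 1 library.

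The region over the Por start itself, centred 206 bases after it and reaching into an intron (chr5:135688353-135690348, mm10), was the highest of those named for Por. It had 89.1, 90.2 and 62.5 CPM in CD A, C and D and 108, 106 and 91.9 CPM in HFD A, B and D. The lowest HFD library barely cleared the highest CD library. The log2 difference was 0.34 (SE 0.09, adjusted p = 0.0277 by edgeR), a call lost without CD D (0.361), HFD A (0.186) or HFD B (0.25).

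The other 3 called Por regions were weaker in reads, with 10 to 76 in any library. At 6134 bases before the start the log2 difference was 0.89 (adjusted p = 0.0265 by edgeR), and the diets overlapped. At 7804 bases after it the difference was 1.14 (0.00949 by edgeR), with HFD D inside the CD range. At 10901 bases after it the difference was 1.0 (0.0333 by edgeR), without overlap. Each of these 3 calls was lost without CD C, CD D, HFD A or HFD B taken singly, with adjusted p up to 0.39, 0.407 and 0.294.

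**Figure D4:**
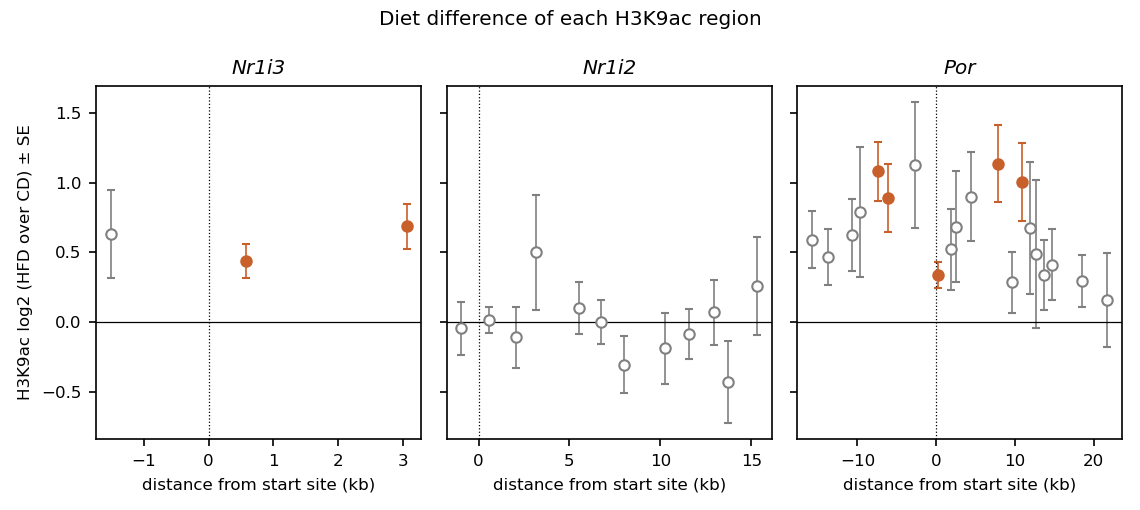
Log2 difference (HFD over CD, ± SE) of each H3K9ac region of Nr1i3, Nr1i2 and Por against its distance from the start in kb. Filled points were called, and 1 Nr1i2 region farther out is not drawn. Regions named for Por lay above 0 throughout, and those named for Nr1i2 lay on both sides of it.

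At the CAR gene, 2 of 3 regions were called. The region 577 bases after the start (chr1:171213809-171215283, mm10, reaching into an intron) had 28.6, 24.5 and 22.2 CPM in CD A, C and D and 36.9, 39.3 and 25.4 CPM in HFD A, B and D. HFD D lay inside the CD range. Its log2 difference was 0.44 (SE 0.12, adjusted p = 0.0354 by edgeR), and the call was lost without CD C, CD D, HFD A or HFD B, with adjusted p from 0.169 to 0.499.

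The second, 3058 bases after the start (chr1:171216193-171217862, mm10), had 10.0, 9.50 and 9.70 CPM in CD A, C and D and 16.4, 19.03 and 11.2 CPM in HFD A, B and D, without overlap. The log2 difference was 0.69 (SE 0.16, adjusted p = 0.00707 by edgeR), a call lost without CD C (0.0621) or HFD B (0.298). It reaches the end of the neighbouring gene Tomm40l, whose RNA had a log2 difference of -0.23 (adjusted p = 0.319 by edgeR).

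The PXR gene showed no such difference. Its start region (chr16:38293621-38294914, mm10) had 65.4, 61.2 and 57.4 CPM in CD A, C and D and 72.1, 63.9 and 49.4 CPM in HFD A, B and D. The HFD libraries spanned the CD range, with a log2 difference of 0.02 (SE 0.10, adjusted p = 0.978 by edgeR). Of the 13 regions named for it by nearest start site, 7 were above 0, and 0 were called or had an unadjusted p under 0.05 by edgeR. The 7 include a region 95121 bases after the start, in an intron of Gsk3b, with a log2 difference of 0.34.

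Among the P450s, the region nearest to Cyp2b9 lay 53311 bases before its start (chr7:26119901-26120294, mm10). It held 9, 7 and 10 reads in CD A, C and D and 32, 26 and 14 reads in HFD A, B and D, without overlap. The log2 difference was 1.48 (SE 0.38, adjusted p = 0.0169 by edgeR), a call lost without CD A, CD C, HFD A or HFD B, with adjusted p from 0.0508 to 0.233. The table assigns it to Cyp2b9 by distance alone.

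Cyp2c29 had 1 region, 2447 bases after its start, at 3.48, 2.92 and 2.48 CPM in CD A, C and D and 2.55, 2.09 and 1.10 CPM in HFD A, B and D. The diets overlapped and the log2 difference of -0.60 (SE 0.28) was not called (adjusted p = 0.398 by edgeR). The region nearest to the start of Cyp3a11 had its edge 125287 bases away and carried the name of Cyp3a25. Of the 32 genes at or above Cyp3a11 in length-scaled level on CD, 18 (56.3%) had a region centred within 1000 bases of the start. The share over all genes of the RNA table was 81.9%. A wide region over a start can be centred farther off and is missed by that count. With a region at any distance, the shares were 93.8% of the 32 and 92.3% of all genes.

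**Figure D5:**
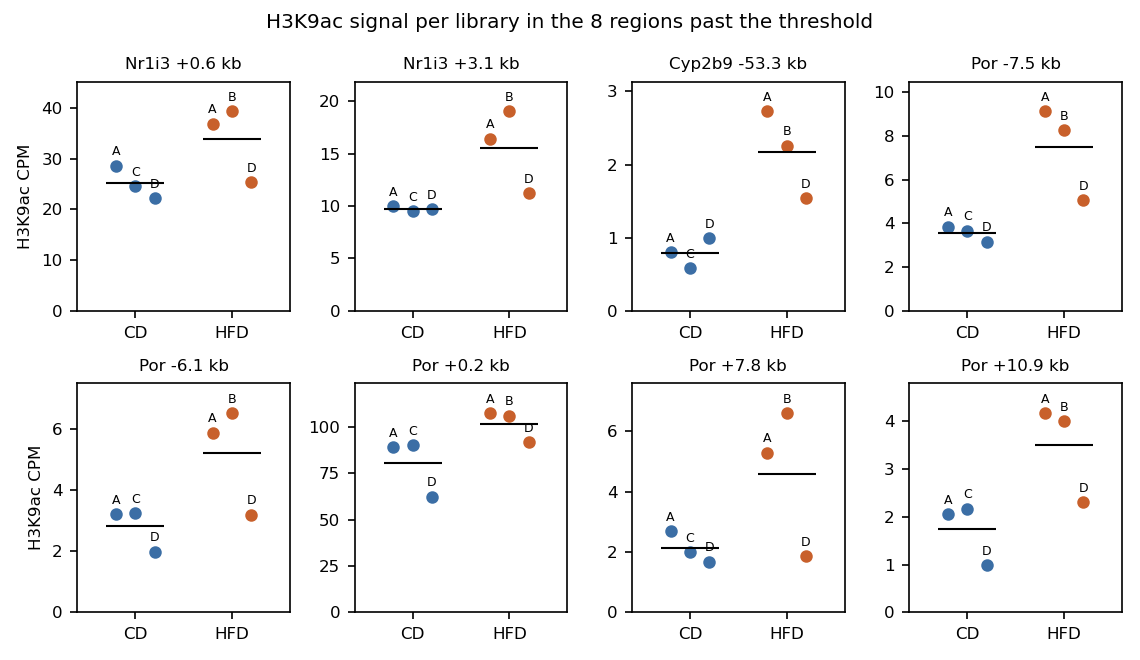
H3K9ac level (CPM, axis from 0) in the 8 called regions for each library, with the mean as a line. HFD D was the lowest HFD library in all 8 regions.

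In the authors' deposited table, 1 member was called higher and 4 lower in RNA at the same threshold, and 7 member regions were higher and 0 lower. The region over the Por start had a false discovery rate of 0.0851 in the authors' deposited table.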

How the data were processed

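RNA was measured in 8 libraries and H3K9ac in 6. The authors deposited raw read counts per gene and per region, with log2 FPKM per gene, log2 fold changes and p-values beside them, per the file headers. The genome build is mm10, per the submitters' processing notes. Neither the aligner nor the counting tool, nor whether reads were counted by strand, is given in the sources used here. Blank lines of the RNA file (4999) and repeated lines of the H3K9ac file (72) were dropped. The lowest mean RNA count was 13.9, so genes of low count had been left out of the RNA table, and edgeR's own filter removed 0 genes and 0 regions.

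Counts were scaled by TMM and fitted with edgeR 4.0.16 (quasi-likelihood, diet only, two-sided) in R 4.3.3, and p-values were adjusted over the whole table at 0.05. The fit was tested on simulated data with 200 changed features. Ratios between 2 members were tested exactly over libraries. Counts per family were also summed and refitted. Promoter windows were read and aligned with Biopython 1.88. The input library and 2 ATAC libraries were not analysed here. No 2 libraries of a diet agreed within sampling noise (lowest chi-square per degree of freedom 32.0 for RNA and 1.49 for H3K9ac).

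Alternatives were library totals in place of TMM, DESeq2 1.42.0, other filters, the library letter as a block, summed families and each library left out. Fits without HFD A and B and without HFD C and D were added after the receptor levels had been seen. Named genes were all members with all called regions and start regions, up to 4 genes of smallest p among those called in each pathway list, and the 3 genes most like 4 members. The members and lists were chosen with earlier results of these data known.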

Additional observations from a re-analysis of the deposited data

Results flagged for a closer look

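In 18 groups of 4 RNA libraries, 1 per member and diet, 2 held a library far from the other 3, where chance gives about 1 in 20. Cyp2b10 stood at 18.65 CPM in CD D against 4.39 to 6.83 CPM in CD A to C. Cyp2b9 stood at 0 CPM in CD C, with 1 read in each of the other CD libraries, so that the gap is a single read.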

How the results depend on the processing

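The counts of 1 member higher and 4 lower in RNA held without any 1 library. Restricting the test to genes at or above the median level left 2 lower, since Cyp2b10 and Cyp2c55 were not tested there. H3K9ac rests on few libraries: member regions called higher numbered 2 with DESeq2, 2 among regions at or above the median level, 2 with the letter as a replicate block, and 1 to 11 without 1 library. Same-lettered libraries correlated between diets at -0.222 to 0.295. Pairs of unlike letters were not computed, so whether the letters pair the libraries was not tested. Summed over its family, the change of Cyp2b10 became 2.35 and that of Cyp3a13 became -1.75 since those sums also hold Cyp2b9 and Cyp3a11.

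Leaving out HFD C and D together, a pair picked after their low receptor levels had been seen, gave 4 members higher, with Nr1i3 at 0.79, Nr1i2 at 0.53 and Por at 0.95. Leaving out HFD A and B gave -0.12, -0.26 and -0.01 and 1 higher, while 4 members were lower either way. Neither pair is a group of the study. The pairs were split by the receptor levels themselves, so the choice fixes these calls, and they bear on no result.

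Partners called higher numbered 2 and lower 0 without HFD C and D, with 1 to 2 higher and 0 to 2 lower without 1 library. Electron and heme genes gave 1 lower with DESeq2. Other phase I genes gave 1 higher with library totals or without HFD A and B, and 1 to 3 without 1 library. Conjugation genes gave 7 higher with DESeq2 or without HFD C and D. The Cyp2c29 to Cyp2c55 ratio ran from 0.78 to 1.02 without 1 library. The cause of these shifts was not tested.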
